A study of Mus musculus with 10 samples.

Results

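A set of 10 genes of steroid metabolism and steroid response was followed through 4 cell populations sorted from mouse prostate. They encode enzymes that make, reactivate, break down or sulfate steroids (Srd5a1, Srd5a2, Srd5a3, Hsd11b1, Hsd17b4, Cyp7b1, Sult1e1 and Sult5a1) and the receptors Esr1 and Nr3c1. These 10 genes were chosen by name, out of 24508 genes in the table, and all 10 reached 1 FPKM in at least 2 libraries. FPKM are fragments per kilobase of transcript scaled to all mapped fragments, so a level is given per length and can be set beside that of another gene. Per the labels, prostates of C57BL/6 mice aged 8 to 12 weeks were dissociated, stained with antibodies and sorted. The gates were Lin-/CD24-/CD49f- for stromal cells (2 libraries), Lin-/CD24low/CD49fhigh for basal cells (2), Lin-/CD24high/CD49flow/Sca-1+ for Sca-1+ luminal cells (3) and Lin-/CD24high/CD49flow/Sca-1- for Sca-1- luminal cells (3). No group carried a mutation or a drug of its own. The labels of every library also give a culture on collagen-coated plates in medium with serum and 1e-10 M dihydrotestosterone (DHT), without stating whether the sorted cells went through it. Nor is it stated whether the libraries of a gate came from separate animals, so p-values measure only the spread between these libraries, which may be technical.

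Steroid signalling in the prostate is set in part by enzymes within the tissue. Steroid 5α-reductases turn testosterone into the more potent androgen DHT, and mesenchymal cells are a classical site of this step. 11β-hydroxysteroid dehydrogenase type 1, the product of Hsd11b1, regenerates active glucocorticoid from its inert 11-keto form, while sulfotransferases such as the estrogen sulfotransferase Sult1e1 add a sulfate that keeps a steroid from binding its receptor. Esr1 and Nr3c1 encode the estrogen receptor α and the glucocorticoid receptor, which act as ligand-dependent transcription factors.

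The promoters of 5 of these genes are printed because the genes took contrasting patterns over the gates. Srd5a2, Hsd11b1 and Sult1e1 were high in the stromal libraries, whereas Srd5a1 and Sult5a1 were highest in the basal libraries. Each window holds 250 bases before and 50 after the RefSeq start in GRCm38.p6 (the assembly also called mm10), read 5′ to 3′ on the gene's strand, which is the minus strand for all 5. Capitals mark the GC box letters GGGCGG, found in either orientation. The windows are chr13:69611414-69611713 for Srd5a1, chr17:74047811-74048110 for Srd5a2, chr1:193242311-193242610 for Hsd11b1, chr5:87591562-87591861 for Sult1e1 and chr8:123158231-123158530 for Sult5a1.
Srd5a1: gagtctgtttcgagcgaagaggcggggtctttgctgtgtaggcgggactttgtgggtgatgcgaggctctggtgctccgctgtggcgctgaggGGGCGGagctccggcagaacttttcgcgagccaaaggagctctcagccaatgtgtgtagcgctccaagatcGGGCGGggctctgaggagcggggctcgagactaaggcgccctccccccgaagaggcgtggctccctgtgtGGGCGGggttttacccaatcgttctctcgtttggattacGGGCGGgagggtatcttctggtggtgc
Srd5a2: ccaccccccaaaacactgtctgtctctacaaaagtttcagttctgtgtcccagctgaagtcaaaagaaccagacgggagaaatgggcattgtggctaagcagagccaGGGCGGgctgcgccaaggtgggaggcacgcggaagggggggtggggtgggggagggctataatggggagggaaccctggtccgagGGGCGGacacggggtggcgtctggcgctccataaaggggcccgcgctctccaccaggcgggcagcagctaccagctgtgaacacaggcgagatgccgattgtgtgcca
Hsd11b1: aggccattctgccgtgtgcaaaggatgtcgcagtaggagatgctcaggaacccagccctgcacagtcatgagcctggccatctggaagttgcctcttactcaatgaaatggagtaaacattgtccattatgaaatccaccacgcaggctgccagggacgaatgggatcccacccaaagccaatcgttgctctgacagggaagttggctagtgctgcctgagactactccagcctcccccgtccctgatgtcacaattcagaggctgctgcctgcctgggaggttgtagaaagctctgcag
Sult1e1: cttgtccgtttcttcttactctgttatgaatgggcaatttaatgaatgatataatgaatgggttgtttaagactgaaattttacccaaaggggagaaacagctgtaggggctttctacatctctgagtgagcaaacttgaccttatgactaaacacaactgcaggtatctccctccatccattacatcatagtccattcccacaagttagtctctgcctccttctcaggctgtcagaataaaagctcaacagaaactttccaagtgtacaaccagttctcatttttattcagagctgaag
Sult5a1: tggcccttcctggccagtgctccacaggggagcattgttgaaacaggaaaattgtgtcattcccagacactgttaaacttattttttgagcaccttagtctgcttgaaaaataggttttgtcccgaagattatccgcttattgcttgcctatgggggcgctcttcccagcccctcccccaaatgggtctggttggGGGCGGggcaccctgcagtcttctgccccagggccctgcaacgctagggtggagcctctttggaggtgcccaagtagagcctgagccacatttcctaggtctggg
Both 5α-reductase windows were rich in G and C, at 63.0% for Srd5a1 and 62.7% for Srd5a2, against a median of 52.7% over 32851 RefSeq windows of the same length. The Srd5a1 window held 24 CpG dinucleotides and 4 GC boxes, and the Srd5a2 window held 15 CpG and 2 GC boxes, whose first bases lay 143 and 58 bases before the start. The Sult5a1 window had 54.7% G and C, 5 CpG and 1 GC box. The Hsd11b1 window, which belongs to the start nearer the coding exons and not to the far start that gave most of its FPKM in the stromal libraries, had the same 54.7% with 6 CpG and no GC box, and the Sult1e1 window had 40% with 1 CpG and no GC box. The median window held 7 CpG. Searched on both strands, GGGCGG was present in 35.7% of all windows, TATAAA in 13.6% and AGAACA, the half-site letters shared by androgen and glucocorticoid response elements, in 19.0%. None of the 5 windows contained TATAAA or AGAACA.

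The 10 libraries held 20.4 to 27.2 M (mega) mapped fragments, read from the steps in the values, and 9811 to 11319 genes at 1 FPKM or more. Ly6a, which encodes Sca-1, had 1290 and 1930 FPKM in stromal, 421 and 473 FPKM in basal, 677, 1116 and 2301 FPKM in Sca-1+ luminal and 54.3, 82.8 and 19.9 FPKM in Sca-1- luminal libraries. The summed level of 12 fibroblast markers was 7878 and 6313 FPKM in the stromal libraries, 698 and 520 FPKM in the basal libraries, 5724, 3027 and 422 FPKM in Sca-1+ luminal libraries 1, 2 and 3, and 102, 78.8 and 145 FPKM in Sca-1- luminal libraries. None of the 12 was at 0 in any library, and all 12 reached 1 FPKM in Sca-1+ luminal libraries 1 and 2. Sca-1+ luminal library 1 thus came near the stromal sums, library 2 lay below them and library 3 lay below the basal libraries. A list of 10 basal markers summed to 7808 and 9065 FPKM in the basal libraries and to 745, 1476 and 3376 FPKM in Sca-1+ luminal libraries 1, 2 and 3, where Krt15 alone gave 571, 935 and 3225 FPKM. Krt14, Krt17, Trp63 and Col17a1 of that list were lowest in library 3 of that gate, so the rise in the sum was not shared by these markers. Besides Krt15, Itgb4 (6.995, 15.2 and 41.3 FPKM), Itga6 (21.1, 40.2 and 47.5 FPKM) and Dst (8.575, 14.1 and 15.2 FPKM) also rose. Krt5 and Lamb3 were highest in library 2. Results that rest on Sca-1+ luminal libraries 1 and 2 are given below also with library 3 alone standing for its gate. In sorted bulk samples, fewer cells of a type and less RNA per cell cannot be told apart.

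Differences were tested with limma on log2(FPKM + 1) for 12454 genes, and genes with a Benjamini-Hochberg adjusted p under 0.05 count as called. Of the 10 genes, 5 were called between stromal and basal libraries (3 higher and 2 lower in stromal), where 22.6% of all tested genes were called, 13.5% higher and 9.13% lower. None was called between stromal and Sca-1+ luminal libraries by limma, the only tool run, where 3 of the 10 had an unadjusted p under 0.05 and 13.4% of all genes were called, 1.8% higher and 11.6% lower. Between stromal and Sca-1- luminal libraries 5 were called (4 higher, 1 lower), close to the 52.6% of all genes called there, 25.2% higher and 27.4% lower. Between basal and Sca-1+ luminal libraries 7 were called (3 higher, 4 lower), against 19.9% of all genes, 4.39% higher and 15.5% lower. Between basal and Sca-1- luminal libraries 4 were called (3 higher, 1 lower), against 46.2% of all genes, 20.2% higher and 26% lower. Between Sca-1+ and Sca-1- luminal libraries 4 were called (3 higher, 1 lower), against 35.1% of all genes, 21.8% higher and 13.3% lower. The median log2 change of all genes was -0.29 for basal over Sca-1+ luminal, -0.16 for stromal over Sca-1+ luminal and 0.19 for Sca-1+ over Sca-1- luminal, and it moved to -0.02, 0.06 and 0.02 when libraries were scaled by the median of ratios. With that scaling the share of called genes that were higher in the first-named gate became 46.9% in place of 22.1%, 32.9% in place of 13.4%, and 46.5% in place of 62.1% in these comparisons. Quantile normalization gave 53.0%, 37.8% and 40.4%. The plots of levels and of differences show the 10 genes side by side.

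**Figure D1:**
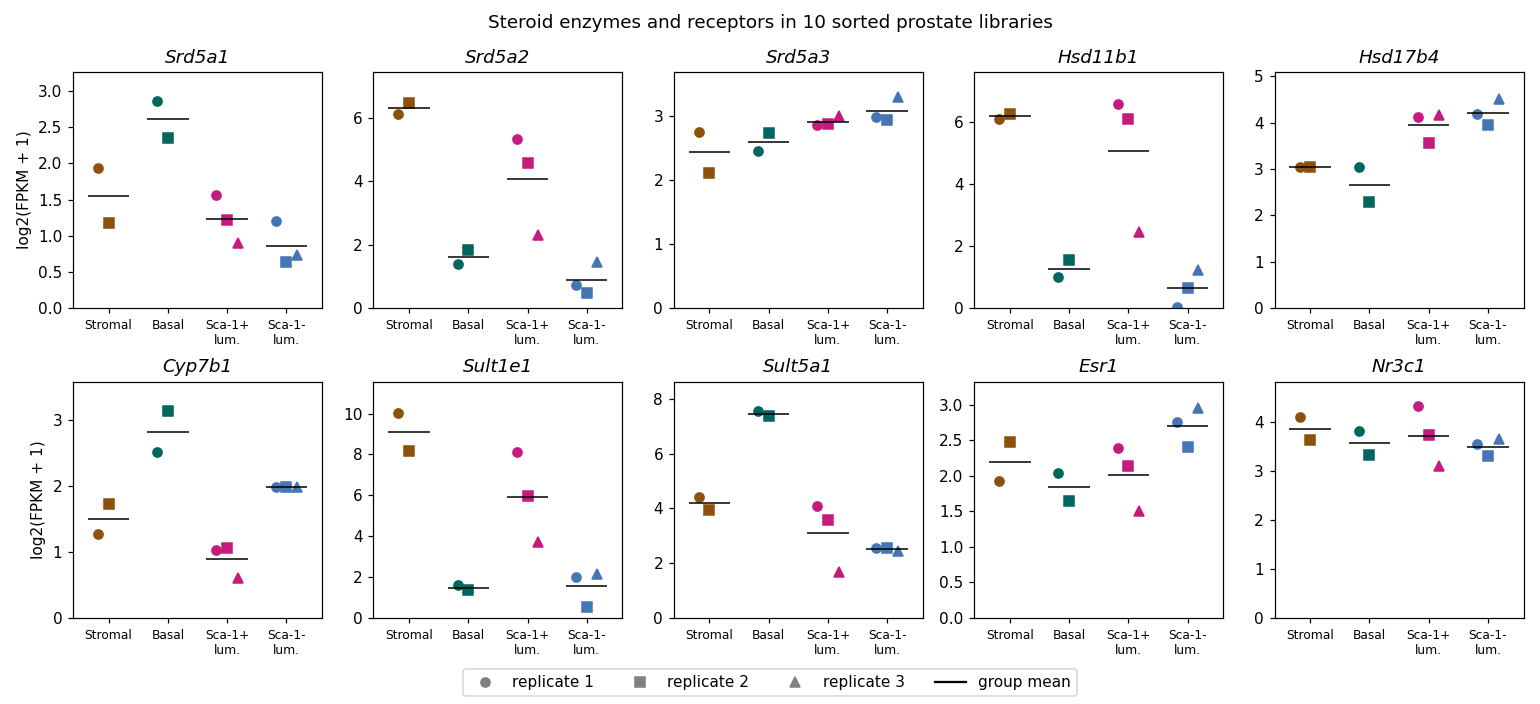
Level of each of the 10 genes in log2(FPKM + 1) by gate, with 1 point per library (shape gives its number within the gate, which pairs no libraries) and a line at the gate mean. The stromal points of Srd5a2, Hsd11b1 and Sult1e1 lie far above the basal and Sca-1- luminal points, the basal points of Srd5a1, Cyp7b1 and Sult5a1 lie above all others, and the points of Nr3c1 overlap in all 4 gates.

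**Figure D2:**
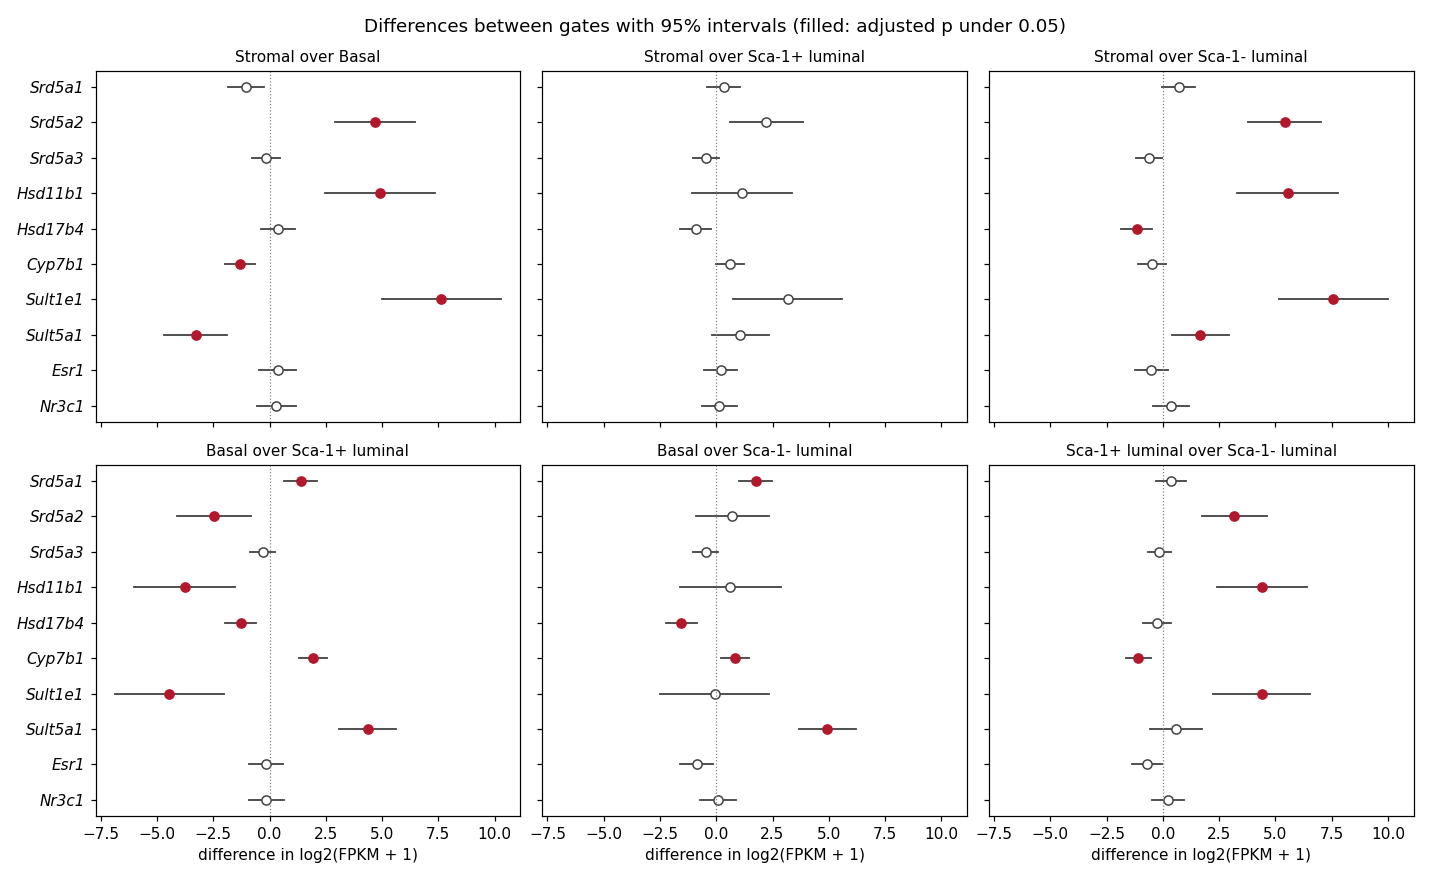
Difference in log2(FPKM + 1) for each of the 10 genes in the 6 comparisons, the first-named gate minus the second. Lines are 95% intervals and filled points had an adjusted p under 0.05: 5, 0 and 5 genes in the upper row and 7, 4 and 4 in the lower row.

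The 3 genes of the 5α-reductase family followed different gates. Srd5a2 encodes the type 2 enzyme, the main DHT-forming isozyme of the prostate in men. It stood at 68.9 and 87.4 FPKM in the stromal libraries, 1.60 and 2.53 FPKM in the basal libraries, 39.3, 22.9 and 3.93 FPKM in Sca-1+ luminal libraries, and 0.669, 0.381 and 1.75 FPKM in Sca-1- luminal libraries. Stromal libraries were above all others, every Sca-1+ luminal library was above the basal and Sca-1- luminal ones, and those lowest gates overlapped. Srd5a2 was higher in stromal than in basal libraries by 4.70 ± 0.80 (log2, SE; adjusted p = 0.0035, limma) and higher in stromal libraries than in the Sca-1- luminal ones by 5.41 ± 0.73 (adjusted p = 0.000369). Both calls were kept under all 18 alternative settings. It was also higher in the Sca-1+ than in the Sca-1- luminal gate by 3.18 ± 0.65 (adjusted p = 0.00622), but with Sca-1+ luminal library 3 alone the difference was 1.41 (adjusted p = 0.0555). The fall in basal against Sca-1+ luminal libraries, -2.47 ± 0.73 (adjusted p = 0.0402), was called under only 5 of 18 alternatives and was -0.70 (adjusted p = 0.337) with library 3 alone. Among fits that left out 1 library, those without Sca-1- luminal 3 or Sca-1+ luminal 3 kept that call and the other 8 did not (adjusted p 0.0552 to 0.193). Stromal over Sca-1+ luminal was 2.23 ± 0.73 (adjusted p = 0.0726), and it was called at 2.86 (adjusted p = 0.0138) without Sca-1+ luminal library 1 and at 4.00 (adjusted p = 0.000387) with library 3 alone.

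Srd5a1, the type 1 isozyme, had its highest level in the basal libraries. Its values were 2.82 and 1.26 FPKM in stromal, 6.24 and 4.13 FPKM in basal, 1.94, 1.32 and 0.870 FPKM in Sca-1+ luminal and 1.30, 0.552 and 0.666 FPKM in Sca-1- luminal libraries. The basal range did not overlap any other, while stromal and both luminal ranges overlapped. Basal libraries exceeded Sca-1- luminal ones by 1.75 ± 0.33 (log2, SE; limma adjusted p = 0.00204), a call kept in all 18 alternatives. The basal excess over Sca-1+ luminal libraries was 1.38 ± 0.33 (adjusted p = 0.0175) and was lost without basal library 1 (1.13, adjusted p = 0.143), basal library 2 (1.63, 0.0635) or Sca-1+ luminal library 2 (1.38, 0.0513), and in a fit of the compared gates only (0.0511). Stromal minus basal was -1.05 ± 0.36 (adjusted p = 0.0616), and without Sca-1+ luminal library 3 the adjusted p was 0.0408. In the annotation the exons of Srd5a1 share 476 bases with Gm17108 on the same strand, and those of Srd5a2 share 144 bases with CT025731.1 on the same strand, so their reads cannot be told apart there.

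Srd5a3, which reduces polyprenol to dolichol, the lipid carrier of N-glycan assembly, varied least in this family. It had 5.75 and 3.33 FPKM in stromal, 4.48 and 5.64 FPKM in basal, 6.24, 6.33 and 6.99 FPKM in Sca-1+ luminal and 6.90, 6.65 and 8.79 FPKM in Sca-1- luminal libraries. Every luminal library was above every stromal and basal one, and the luminal gates overlapped. None of its 6 differences was called. The one with the smallest adjusted p was stromal minus Sca-1- luminal, -0.64 ± 0.26 (limma adjusted p = 0.0619, 95% interval -1.21 to -0.06), which became -0.96 (adjusted p = 0.0340) without stromal library 1. Of the summed FPKM of the 3 family genes, Srd5a2 took 88.9% and 95% in the stromal libraries, 13% and 20.6% in the basal libraries, 82.8%, 74.9% and 33.3% in the Sca-1+ luminal libraries, and 7.54%, 5.02% and 15.7% in the Sca-1- luminal libraries. Srd5a3 took 77.8%, 87.7% and 78.4% in the Sca-1- luminal libraries, and Srd5a1 took 50.7% and 33.6% in the basal libraries. The leading transcript of the family was thus Srd5a2 in stroma, Srd5a3 in Sca-1- luminal libraries, and Srd5a1 or Srd5a3 in the basal ones. Their summed level was 77.5 and 92.0 FPKM in stromal libraries and 7.58 to 12.3 FPKM in the basal and Sca-1- luminal ones.

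The other genes of dolichol synthesis and use were set beside Srd5a3, 9 of 10 listed genes being tested. Against Sca-1- luminal libraries, 7 of 9 fell in stromal libraries, 7 of 9 fell in basal libraries and 6 of 9 fell in Sca-1+ luminal libraries, and none rose. Of all genes, 27.4%, 26% and 13.3% were called lower in these comparisons. The median change was -1.21, -1.65 and -0.97 (log2), against -0.06, -0.05 and 0.19 over all tested genes. None of the 9 was called between stromal and basal, stromal and Sca-1+ luminal, or basal and Sca-1+ luminal libraries by limma, where 1, 1 and 4 had an unadjusted p under 0.05. There 22.6%, 13.4% and 19.9% of all genes were called. Dpm3, a subunit of dolichol-phosphate mannose synthase, had 15.5 and 13.4 FPKM in stromal, 10.6 and 13.1 FPKM in basal, 17.4, 16.7 and 26.7 FPKM in Sca-1+ luminal and 49.9, 57.0 and 64.9 FPKM in Sca-1- luminal libraries. Alg5, the dolichol-phosphate glucosyltransferase, had 17.8 and 23.4 FPKM, 18.4 and 20.6 FPKM, 23.1, 26.8 and 25.4 FPKM, and 63.0, 64.9 and 61.9 FPKM in the same order of gates. For both genes the Sca-1- luminal libraries stood clear of all others. Alg5 was lower by 1.65 ± 0.20 in basal than in Sca-1- luminal libraries (log2 change -1.65, limma adjusted p = 0.000187) and Dpm3 changed by -2.18 ± 0.25 (adjusted p = 0.000155) in that comparison. Over 18 alternatives the number that fell ranged from 4 to 7 in stromal, 6 to 7 in basal and 3 to 7 in Sca-1+ luminal libraries. The 4 came without stromal library 1, and the 3 with Sca-1+ luminal library 3 alone.

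Hsd11b1 was high in the stromal libraries and as high in Sca-1+ luminal libraries 1 and 2. It was at 68.1 and 75.9 FPKM in the stromal libraries, 1.01 and 1.92 FPKM in the basal libraries, 96.2, 67.4 and 4.54 FPKM in Sca-1+ luminal libraries 1, 2 and 3, and 0.0364, 0.570 and 1.35 FPKM in Sca-1- luminal libraries. Stromal and Sca-1+ luminal ranges overlapped, the basal and Sca-1- luminal ranges overlapped, and the first pair lay above the second. The rise in stromal over Sca-1- luminal libraries was 5.54 ± 0.99 (log2, SE; limma adjusted p = 0.00154) and that in Sca-1+ over Sca-1- luminal libraries was 4.41 ± 0.89 (adjusted p = 0.00592). Both were called under all 18 alternatives, and with Sca-1+ luminal library 3 alone the second was still called (lowest value over the alternatives 1.83). Stromal over basal was 4.91 ± 1.09 (adjusted p = 0.0113) and lost its call when any 1 of those 4 libraries was left out (adjusted p 0.0534 to 0.0716). Basal over Sca-1+ luminal was -3.78 ± 0.99 (adjusted p = 0.0265). It was not called without basal 1, basal 2, Sca-1+ luminal 1 or Sca-1+ luminal 2 (adjusted p 0.0538 to 0.149), and was -1.19 with library 3 alone. Nor was it called with no filter (adjusted p = 0.0656) or in a fit of the compared gates only (0.123). Stromal over Sca-1+ luminal was 1.13 ± 0.99 (95% interval -1.10 to 3.36, adjusted p = 0.470), and 3.72 (adjusted p = 0.000726) with library 3 alone.

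The files list Hsd11b1 transcripts from 2 start sites that lie 21685 bases apart on chromosome 1, and both are on the minus strand. The far start, at 193264045, gave 40.4 and 48.7 FPKM in stromal libraries 1 and 2, against 27.7 and 27.3 FPKM from the near start, at 193242360. In Sca-1+ luminal libraries 1, 2 and 3 the far start gave 78.3, 51.4 and 2.13 FPKM and the near start 17.9, 16.0 and 2.41 FPKM. The far start thus held 59.3% and 64.1% of the gene's FPKM in stromal libraries, and 81.4%, 76.3% and 46.9% in Sca-1+ luminal libraries. Libraries 1 and 2 of the Sca-1+ luminal gate were above both stromal libraries in this share, and library 3 was below them. The deposited 95% bounds cover error within 1 library and not the spread between libraries. Those of the near start were 15.8 to 20.0 FPKM and 13.7 to 18.2 FPKM in Sca-1+ luminal libraries 1 and 2, and 25.0 to 30.4 FPKM and 24.4 to 30.1 FPKM in the stromal libraries, with no overlap. Those of the far start were 73.6 to 83.0 FPKM in Sca-1+ luminal library 1, above both stromal libraries, but 47.56 to 55.25 FPKM in Sca-1+ luminal library 2, which overlapped the 45.0 to 52.4 FPKM of stromal library 2. In the basal and Sca-1- luminal libraries no start passed 2 FPKM, and shares there rest on few fragments. These transcript values are Cufflinks estimates that split shared reads, and no test was run on the shares.

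**Figure D3:**
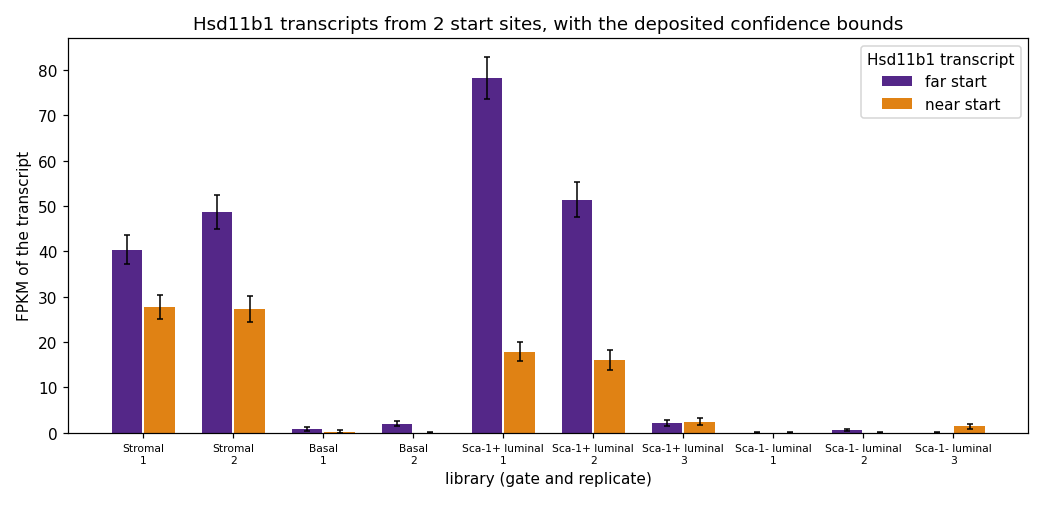
FPKM of the Hsd11b1 transcripts from the far and the near start in each library, with bars from 0 and lines for the deposited 95% confidence bounds. In the stromal libraries the near start stands at 27.7 and 27.3 FPKM, while in Sca-1+ luminal libraries 1 and 2 it stands at 17.9 and 16.0 FPKM beside a far start of 78.3 and 51.4 FPKM.

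H6pd, which supplies the NADPH that lets the Hsd11b1 enzyme work as a reductase in the endoplasmic reticulum, had a similar order of gates. It was at 34.1 and 62.8 FPKM in stromal, 2.40 and 2.72 FPKM in basal, 35.8, 22.5 and 10.1 FPKM in Sca-1+ luminal and 6.36, 6.04 and 9.37 FPKM in Sca-1- luminal libraries. Basal libraries were the lowest, and every Sca-1+ luminal library was above every Sca-1- luminal one. H6pd rose in stromal over basal libraries by 3.73 ± 0.51 (log2, SE; limma adjusted p = 0.0016) and over Sca-1- luminal libraries by 2.54 ± 0.46 (adjusted p = 0.00167), calls kept in all 18 alternatives. Hsd11b2, which inactivates glucocorticoid in mineralocorticoid target tissue, stayed between 0.107 and 1.88 FPKM and was not called in any comparison. The list of other hydroxysteroid dehydrogenases and aldo-keto reductases (11 of 23 tested) had 2 higher and 6 lower in the stromal than in the Sca-1- luminal gate, 2 higher and 7 lower in basal than in Sca-1- luminal libraries, and 1 higher and 3 lower in the Sca-1+ than in the Sca-1- luminal gate. It had 2 higher and 2 lower in stromal than in basal, none higher and 1 lower in stromal than in Sca-1+ luminal, and 1 higher and 3 lower in basal than in Sca-1+ luminal libraries. Across all tested genes, 25.2%, 20.2% and 21.8% were called higher in stromal, basal and Sca-1+ luminal libraries against Sca-1- luminal ones. In that order 27.4%, 26% and 13.3% were called lower. Stromal against basal, stromal against Sca-1+ luminal and basal against Sca-1+ luminal libraries gave 13.5%, 1.8% and 4.39% higher. Their shares called lower were 9.13%, 11.6% and 15.5%. Hsd17b10, a mitochondrial dehydrogenase, was at 28.1 and 53.0 FPKM in stromal, 18.4 and 22.9 FPKM in basal, 39.9, 52.4 and 51.7 FPKM in Sca-1+ luminal and 88.5, 92.6 and 110 FPKM in Sca-1- luminal libraries, and it fell by 2.18 ± 0.29 in basal against Sca-1- luminal libraries (adjusted p = 0.000311). Akr1c13 was at 0.277 and 0.495 FPKM in stromal, 1.5 and 1.42 FPKM in basal, 2.13, 2.75 and 0.761 FPKM in Sca-1+ luminal and 10.6, 9.08 and 15.3 FPKM in Sca-1- luminal libraries, and Akr1c12 ran alike. These are near copies of each other, and reads may be split between them. H2-Ke6 was listed at 0 in the stromal libraries, the basal libraries and Sca-1+ luminal library 1, and at 45.2 to 107 FPKM in the other libraries, so its listed zeros may be failed estimates. It is among the 6 and the 7 genes counted as lower in the stromal and basal gates than in the Sca-1- luminal gate.

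Hsd17b4 was higher in the luminal gates. It encodes the peroxisomal multifunctional enzyme that carries out the hydratase and dehydrogenase steps of β-oxidation and can also oxidise estradiol. Its values were 7.23 and 7.29 FPKM in stromal, 7.22 and 3.88 FPKM in basal, 16.5, 10.8 and 17.1 FPKM in Sca-1+ luminal and 17.2, 14.4 and 22.0 FPKM in Sca-1- luminal libraries. All luminal libraries lay above all stromal and basal ones, and the luminal ranges overlapped. Hsd17b4 fell by 1.55 ± 0.30 (log2, SE; limma adjusted p = 0.00262) in basal against Sca-1- luminal libraries, in all 18 alternatives. It fell by 1.17 ± 0.30 in stromal against Sca-1- luminal libraries (adjusted p = 0.00963), and the adjusted p was 0.0537 without stromal library 1. The change in basal against Sca-1+ luminal libraries was -1.29 ± 0.30 (adjusted p = 0.0171), and the call was lost without basal library 2 (-0.92, adjusted p = 0.177), after quantile normalization (-0.91, 0.0612) and in a fit of the compared gates only (0.0748). Stromal minus Sca-1+ luminal was -0.91 ± 0.30 (adjusted p = 0.0781), and Sca-1+ minus Sca-1- luminal was -0.26 ± 0.27 (95% interval -0.87 to 0.35, adjusted p = 0.472).

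Most other genes of peroxisomal β-oxidation were also lower in the stromal and basal gates than in the Sca-1- luminal gate. Of 14 tested genes (16 listed), 1 rose and 10 fell in stromal against Sca-1- luminal libraries, none rose and 12 fell in basal against Sca-1- luminal libraries, and none rose and 6 fell in Sca-1+ against Sca-1- luminal libraries. The median changes were -1.35, -1.53 and -0.52 (log2), against -0.06, -0.05 and 0.19 for all tested genes. In these comparisons 27.4%, 26% and 13.3% of all genes were called lower. In the other comparisons 4 rose and 1 fell in stromal against basal, none rose and 3 fell in stromal against Sca-1+ luminal, and none rose and 7 fell in basal against Sca-1+ luminal libraries. There 13.5%, 1.8% and 4.39% of all genes were called higher and 9.13%, 11.6% and 15.5% lower. Acaa1a and Acaa1b, both in the list, ran alike, and reads may be split between them. Acaa1a had 17.6 and 22.5 FPKM in stromal and 57.8, 48.1 and 63.2 FPKM in Sca-1- luminal libraries. Acaa1b had 1.75 and 2.24 FPKM, and 6.26, 5.05 and 6.36 FPKM, in the same libraries. Scp2, whose longer product is the peroxisomal thiolase for branched chains, had 17.7 and 22.8 FPKM in stromal, 9.28 and 7.21 FPKM in basal, 29.7, 33.2 and 27.4 FPKM in Sca-1+ luminal and 66.8, 57.1 and 83.6 FPKM in Sca-1- luminal libraries. No gates overlapped for Scp2, which changed by -2.92 ± 0.24 in basal (limma adjusted p = 2.72e-05) and by -1.16 ± 0.21 in Sca-1+ luminal libraries (adjusted p = 0.0039) against Sca-1- luminal ones. Decr2, a dienoyl-CoA reductase, had 2.53 and 3.15 FPKM in stromal, 3.12 and 2.81 FPKM in basal, 7.84, 11.6 and 10.8 FPKM in Sca-1+ luminal and 21.5, 20.3 and 29.7 FPKM in Sca-1- luminal libraries. Its stromal and basal ranges overlapped, and the stromal change against Sca-1- luminal libraries was -2.68 ± 0.25 (adjusted p = 6.96e-05). Pex5, the import receptor for peroxisomal enzymes, was the gene that rose in stromal against Sca-1- luminal libraries, with 63.3 and 80.3 FPKM in stromal and 23.3, 14.8 and 15.6 FPKM in Sca-1- luminal libraries (1.96 ± 0.47, adjusted p = 0.00654). Over 18 alternatives the number that fell ranged from 7 to 11 in stromal, 9 to 12 in basal and 1 to 7 in Sca-1+ luminal libraries, all against Sca-1- luminal libraries. The 1 came with Sca-1+ luminal library 3 alone, and leaving out Sca-1+ luminal 1 or 2, or Sca-1- luminal 1 or 3, gave 4.

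**Figure D4:**
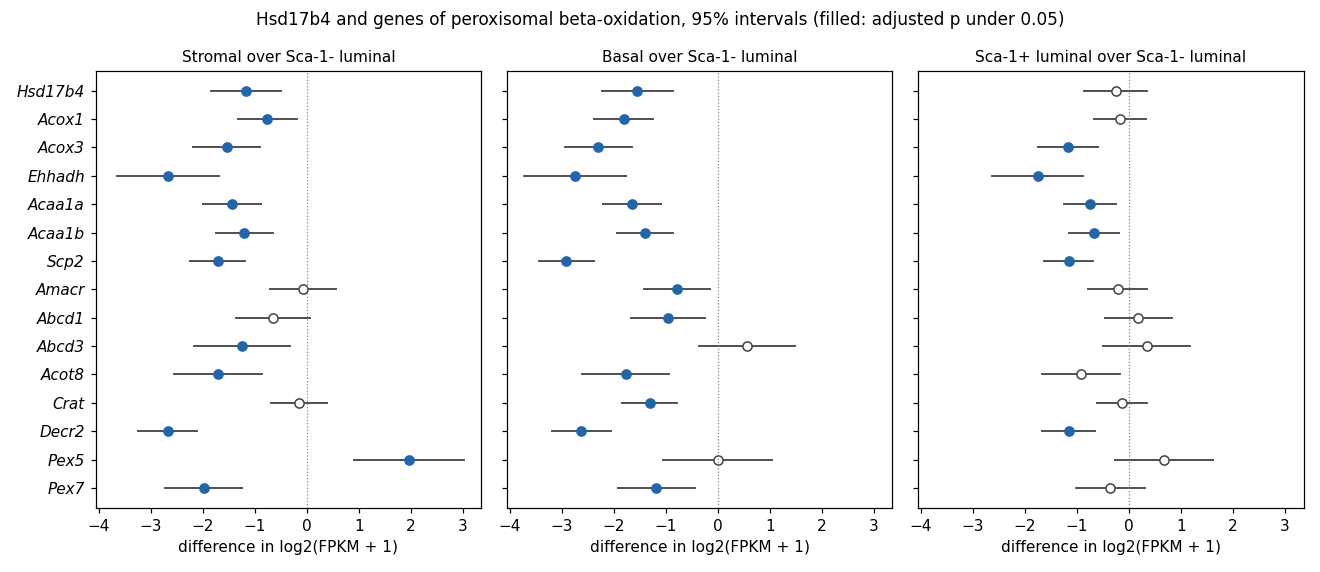
Difference in log2(FPKM + 1) against the Sca-1- luminal libraries for Hsd17b4 and 14 genes of peroxisomal β-oxidation, with 95% intervals and filled points at an adjusted p under 0.05. Filled points lie left of 0 for 10, 12 and 6 list genes in the stromal, basal and Sca-1+ luminal panels, and Pex5 in the stromal panel is the one to the right of 0.

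Cyp7b1 separated all 4 gates. Its enzyme adds a 7α-hydroxyl group to oxysterols and also hydroxylates the androgen metabolite 3β-diol, an estrogen receptor β ligand in rodent prostate. The level was 1.41 and 2.31 FPKM in stromal, 4.71 and 7.75 FPKM in basal, 1.03, 1.08 and 0.515 FPKM in Sca-1+ luminal and 2.95, 2.94 and 2.95 FPKM in Sca-1- luminal libraries. No library of one gate fell within the range of another, with basal highest, then Sca-1- luminal, stromal and Sca-1+ luminal. Cyp7b1 rose by 1.93 ± 0.27 in basal over Sca-1+ luminal libraries (log2, SE; limma adjusted p = 0.00201) and fell by 1.09 ± 0.24 in Sca-1+ against Sca-1- luminal libraries (adjusted p = 0.00955), both in all 18 alternatives. It was thus the only one of the 10 genes called lower in the Sca-1+ than in the Sca-1- luminal gate. Stromal minus basal was -1.33 ± 0.30 (adjusted p = 0.0122), and the call was lost without stromal library 1 (-1.10, adjusted p = 0.0885) or basal library 2 (-1.02, 0.107), and in a fit of the compared gates only (0.0533). The basal excess over Sca-1- luminal libraries, 0.84 ± 0.27 (adjusted p = 0.0300), was lost without basal library 2 (0.53, adjusted p = 0.255) or any 1 Sca-1- luminal library (adjusted p 0.0527 to 0.0682), with a pseudocount of 0.1 (0.0668) and with no filter (0.0578). Stromal minus Sca-1+ luminal was 0.60 ± 0.27 (adjusted p = 0.168), and stromal minus Sca-1- luminal was -0.48 ± 0.27 (adjusted p = 0.162).

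Of 8 tested genes of the steroid and oxysterol hydroxylase list (12 listed), 3 rose and none fell in stromal against basal, 1 rose and 1 fell in stromal against Sca-1+ luminal, 3 rose and 1 fell in stromal against Sca-1- luminal, none rose and 2 fell in basal against Sca-1+ luminal, none rose and 3 fell in basal against Sca-1- luminal, and 2 rose and 1 fell in Sca-1+ against Sca-1- luminal libraries. Over 18 alternatives the last count ranged from 1 to 5 higher, and the 5 came without Sca-1+ luminal library 3. Across all tested genes, 25.2%, 20.2% and 21.8% were called higher in stromal, basal and Sca-1+ luminal libraries against Sca-1- luminal ones. In that order 27.4%, 26% and 13.3% were called lower. Stromal against basal, stromal against Sca-1+ luminal and basal against Sca-1+ luminal libraries gave 13.5%, 1.8% and 4.39% higher. Their shares called lower were 9.13%, 11.6% and 15.5%. Cyp27a1, the mitochondrial enzyme that makes 27-hydroxycholesterol, a Cyp7b1 substrate, was highest in the stromal libraries. Its values were 54.3 and 48.9 FPKM in stromal, 4.49 and 3.38 FPKM in basal, 31.9, 18.3 and 14.6 FPKM in Sca-1+ luminal and 15.7, 10.8 and 14.8 FPKM in Sca-1- luminal libraries. Basal libraries were lowest for Cyp27a1 and highest for Cyp7b1, and the luminal ranges of Cyp27a1 overlapped. Cyp27a1 rose by 3.42 ± 0.35 in stromal over basal libraries (limma adjusted p = 0.000394) and fell by 1.57 ± 0.32 in basal against Sca-1- luminal libraries (adjusted p = 0.00328). Cyp1b1, which hydroxylates estradiol, was at 21.6 and 28.5 FPKM in stromal, 0.520 and 1.05 FPKM in basal, 18.7, 9.08 and 2.87 FPKM in Sca-1+ luminal and 0.0650, 0.0661 and 0.215 FPKM in Sca-1- luminal libraries, and rose by 3.04 ± 0.49 in Sca-1+ over Sca-1- luminal libraries (adjusted p = 0.00221). With Sca-1+ luminal library 3 alone that difference was 1.798 (adjusted p = 0.00701). Ch25h, cholesterol 25-hydroxylase, ranged from 0.782 to 8.58 FPKM and was not called in any comparison.

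Sult1e1 had the highest FPKM of the 10 genes in any library. Its level was 1052 and 288 FPKM in the stromal libraries, 2.04 and 1.55 FPKM in the basal libraries, 281, 60.7 and 12.2 FPKM in Sca-1+ luminal libraries 1, 2 and 3, and 2.93, 0.433 and 3.40 FPKM in Sca-1- luminal libraries. The stromal libraries differed from each other, the lower of them lay just above Sca-1+ luminal library 1, and the basal range fell within the Sca-1- luminal one. Sult1e1 rose by 7.63 ± 1.18 in stromal over basal libraries (log2, SE; limma adjusted p = 0.0025) and by 7.56 ± 1.08 in stromal over Sca-1- luminal libraries (adjusted p = 0.000492), in all 18 alternatives. It rose by 4.39 ± 0.97 in Sca-1+ over Sca-1- luminal libraries (adjusted p = 0.00864), but with Sca-1+ luminal library 3 alone the value was 2.17 (adjusted p = 0.0928). Basal minus Sca-1+ luminal was -4.46 ± 1.08 (adjusted p = 0.0193). That call was lost without basal 1, basal 2 or Sca-1+ luminal 2 (adjusted p 0.0523 to 0.124). The same call was lost with no filter (adjusted p = 0.0512) and in a fit of the compared gates only (0.08595). With library 3 alone the value was -2.24. Stromal minus Sca-1+ luminal was 3.17 ± 1.08 (adjusted p = 0.0831), and it was called at 4.28 (adjusted p = 0.00731) without Sca-1+ luminal library 1 and at 5.39 (adjusted p = 0.00158) with library 3 alone. Basal minus Sca-1- luminal was -0.07 ± 1.08 (95% interval -2.49 to 2.36).

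Sult5a1, a less studied cytosolic sulfotransferase, was instead highest in the basal libraries. It had 20.5 and 14.3 FPKM in stromal, 187 and 164 FPKM in basal, 15.9, 10.9 and 2.18 FPKM in Sca-1+ luminal and 4.92, 4.84 and 4.48 FPKM in Sca-1- luminal libraries. The basal libraries stood far above all others, and the Sca-1+ luminal range overlapped both the stromal and the Sca-1- luminal one. Sult5a1 rose in basal over Sca-1+ luminal libraries by 4.35 ± 0.57 (log2, SE; limma adjusted p = 0.00143) and over Sca-1- luminal libraries by 4.94 ± 0.57 (adjusted p = 0.000153). It fell by 3.28 ± 0.62 in stromal against basal libraries (adjusted p = 0.0057), and these 3 calls were kept in all 18 alternatives. The rise in stromal over Sca-1- luminal libraries, 1.66 ± 0.57 (adjusted p = 0.0330), was lost when any 1 stromal or Sca-1- luminal library was left out (adjusted p 0.0671 to 0.178) and with no filter (0.0662). Sca-1+ minus Sca-1- luminal was 0.59 ± 0.51 (adjusted p = 0.385), 1.31 (adjusted p = 0.00218) without Sca-1+ luminal library 3 and -0.85 (adjusted p = 0.0772) with library 3 alone. Stromal minus Sca-1+ luminal was 1.07 ± 0.57 (adjusted p = 0.230), and 2.51 (adjusted p = 0.000533) with library 3 alone. Sult1e1 and Sult5a1 thus had their highest levels in different gates.

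In the list of steroid sulfation and glucuronidation, 9 of 18 genes were tested. In stromal libraries 2 rose and 2 fell against basal, none rose and 3 fell against Sca-1+ luminal, and 3 rose and 2 fell against Sca-1- luminal libraries. In basal libraries 1 rose and 4 fell against Sca-1+ luminal and 2 rose and none fell against Sca-1- luminal libraries. In Sca-1+ luminal libraries 5 rose and 1 fell against Sca-1- luminal libraries, with a list median of 1.47 (log2) against 0.19 for all genes. Ugt1a6a and Ugt1a7c, both tested, entered these counts as separate genes, and reads may be split between them. Across all tested genes, 25.2%, 20.2% and 21.8% were called higher in stromal, basal and Sca-1+ luminal libraries against Sca-1- luminal ones. In that order 27.4%, 26% and 13.3% were called lower. Stromal against basal, stromal against Sca-1+ luminal and basal against Sca-1+ luminal libraries gave 13.5%, 1.8% and 4.39% higher. Their shares called lower were 9.13%, 11.6% and 15.5%. Sult1c2, another sulfotransferase, had 0.0969 and 0.213 FPKM in stromal, 0.167 and 0.317 FPKM in basal, 5.02, 7.64 and 21.9 FPKM in Sca-1+ luminal and 0.789, 0.496 and 1.53 FPKM in Sca-1- luminal libraries. Ugt2b34, a glucuronosyltransferase, had 0.0286 and 0.0931 FPKM in stromal, 0.0443 and 0.234 FPKM in basal, 2.30, 3.95 and 13.2 FPKM in Sca-1+ luminal and 0.239, 0.531 and 0.273 FPKM in Sca-1- luminal libraries. These genes were highest in Sca-1+ luminal library 3, where Sult1e1 was lowest for its gate. Sult1c2 rose by 2.49 ± 0.43 in Sca-1+ over Sca-1- luminal libraries (limma adjusted p = 0.00321) and fell by 3.20 ± 0.49 in stromal against Sca-1+ luminal libraries (adjusted p = 0.00298), and Ugt2b34 rose by 2.19 ± 0.44 in Sca-1+ over Sca-1- luminal libraries (adjusted p = 0.00589). Papss2, which makes the sulfate donor PAPS, was at 32.0 and 34.3 FPKM in stromal, 74.3 and 113 FPKM in basal, 35.5, 50.2 and 21.2 FPKM in Sca-1+ luminal and 144, 119 and 116 FPKM in Sca-1- luminal libraries. It fell by 1.89 ± 0.34 in stromal (adjusted p = 0.0016) and by 1.87 ± 0.31 in Sca-1+ luminal libraries (adjusted p = 0.0024) against Sca-1- luminal ones. Sult1e1 was higher in these gates than in the Sca-1- luminal gate. Within the Sca-1+ luminal gate, however, library 3 had the lowest value of both Papss2 and Sult1e1. Papss1, also in the list, is not described here. Over 18 alternatives the list's counts in Sca-1+ over Sca-1- luminal libraries ranged from 3 to 6 higher, with 1 lower throughout.

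Neither receptor was called in any of the 6 comparisons. Esr1 had 2.79 and 4.57 FPKM in stromal, 3.13 and 2.13 FPKM in basal, 4.23, 3.40 and 1.83 FPKM in Sca-1+ luminal and 5.79, 4.31 and 6.74 FPKM in Sca-1- luminal libraries. The Sca-1- luminal libraries were above the basal and Sca-1+ luminal ones and overlapped the stromal ones. Basal minus Sca-1- luminal was -0.86 ± 0.33 (log2, SE; limma adjusted p = 0.0566, 95% interval -1.61 to -0.12), and it was called without Sca-1+ luminal 1 (adjusted p = 0.0460), Sca-1+ luminal 3 (0.0253) or Sca-1- luminal 2 (-1.01, 0.0467), with the compared gates only (0.0433) and with library weighting (-0.89, 0.00613). Sca-1+ minus Sca-1- luminal was -0.70 ± 0.30 (adjusted p = 0.0904). It was called after median-of-ratios scaling (-0.86, adjusted p = 0.0318), quantile normalization (-1.0, 0.0124) and library weighting (-0.61, 0.0285). The remaining Esr1 intervals reached from -1.25 to 1.17 at their widest. Of its 10 listed transcripts, 4 were above 0 in any library.

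Nr3c1 was at 16.1 and 11.3 FPKM in stromal, 13.1 and 9.04 FPKM in basal, 19.1, 12.3 and 7.54 FPKM in Sca-1+ luminal and 10.8, 8.85 and 11.5 FPKM in Sca-1- luminal libraries. All 4 ranges overlapped, and the widest spread was within the Sca-1+ luminal gate. Its 6 differences lay between -0.14 and 0.36 (log2), with adjusted p of 0.415 to 0.894 by limma. The intervals reached from -0.94 to 1.15, which bounds what these libraries can show. The transcript of the glucocorticoid receptor was thus similar in level across gates in which Hsd11b1 differed by up to 5.54 (log2).

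The other steroid and related nuclear receptors (7 of 13 tested) were mostly lower in the stromal and basal gates than in the Sca-1- luminal gate. Against Sca-1- luminal libraries 1 rose and 5 fell in stromal, none rose and 6 fell in basal, and none rose and 2 fell in Sca-1+ luminal libraries, where 27.4%, 26% and 13.3% of all genes were called lower. Between stromal and basal libraries 2 rose and none fell, between stromal and Sca-1+ luminal none rose and 2 fell, and between basal and Sca-1+ luminal none rose and 3 fell. There 13.5%, 1.8% and 4.39% of all genes were called higher and 9.13%, 11.6% and 15.5% lower. Over 18 alternatives the number that fell against Sca-1- luminal libraries ranged from 3 to 5 in stromal, 4 to 7 in basal and 0 to 5 in Sca-1+ luminal libraries. The 3 came without either stromal library or without Sca-1- luminal 1 or 3, the 4 without either basal library, and the 0 without Sca-1+ luminal 2 or with Sca-1+ luminal library 3 alone.

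Nr3c2, the mineralocorticoid receptor, was at 0.408 and 0.227 FPKM in stromal, 0.551 and 0.240 FPKM in basal, 1.96, 1.42 and 3.34 FPKM in Sca-1+ luminal and 4.57, 2.51 and 4.07 FPKM in Sca-1- luminal libraries. It fell by 1.82 ± 0.31 in stromal (limma adjusted p = 0.00114) and by 1.74 ± 0.31 in basal libraries (adjusted p = 0.00152) against Sca-1- luminal ones. Esr2, estrogen receptor β, reached 1.29, 0.425 and 1.51 FPKM in Sca-1- luminal libraries, and its highest value in the other gates was 0.236 FPKM. It changed by -0.84 ± 0.22 in Sca-1+ against Sca-1- luminal libraries (adjusted p = 0.0186), a call lost without Sca-1+ luminal 2 (adjusted p = 0.0561) and with Sca-1+ luminal library 3 alone (0.0754). The progesterone receptor gene Pgr did not pass the filter, at 0.0121 to 0.781 FPKM.

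Known glucocorticoid-induced genes (10 of 10 tested) did not move one way. Across all tested genes, 25.2%, 20.2% and 21.8% were called higher in stromal, basal and Sca-1+ luminal libraries against Sca-1- luminal ones. In that order 27.4%, 26% and 13.3% were called lower. Stromal against basal, stromal against Sca-1+ luminal and basal against Sca-1+ luminal libraries gave 13.5%, 1.8% and 4.39% higher. Their shares called lower were 9.13%, 11.6% and 15.5%. Of the 10 listed genes, in stromal libraries 2 rose and 1 fell against basal, none rose and 1 fell against Sca-1+ luminal, and 4 rose and 3 fell against Sca-1- luminal libraries. In basal libraries 1 rose and 3 fell against Sca-1+ luminal and 2 rose and 2 fell against Sca-1- luminal libraries, and in Sca-1+ luminal libraries 3 rose and 1 fell against Sca-1- luminal ones, where 1 rose and none fell with library 3 alone. Cebpd, a bZIP transcription factor, was at 442 and 422 FPKM in stromal, 69.7 and 32.1 FPKM in basal, 295, 186 and 184 FPKM in Sca-1+ luminal and 45.3, 39.3 and 27.2 FPKM in Sca-1- luminal libraries, and rose by 3.53 ± 0.37 in stromal over Sca-1- luminal libraries (limma adjusted p = 0.000108). Fkbp5, a receptor co-chaperone also induced by androgen, ran the other way, with 15.2 and 15.0 FPKM in stromal, 16.2 and 14 FPKM in basal, 28.1, 26.1 and 26.1 FPKM in Sca-1+ luminal and 60.9, 31.2 and 66.7 FPKM in Sca-1- luminal libraries. It fell by 1.67 ± 0.30 in stromal against Sca-1- luminal libraries (adjusted p = 0.00162). Zbtb16 was at 2.27 and 1.14 FPKM in stromal, and between 5.19 and 15.2 FPKM in all other libraries, and fell by 2.30 ± 0.36 in stromal against basal libraries (adjusted p = 0.00263). Of the receptor chaperones and coregulators (13 of 14 tested, Fkbp5 among them too), 1 rose and 2 fell in stromal against basal, 1 rose and 2 fell in stromal against Sca-1+ luminal, and 2 rose and 4 fell in stromal against Sca-1- luminal libraries. In basal libraries 1 rose and none fell against Sca-1+ luminal and 4 rose and 2 fell against Sca-1- luminal libraries, and in Sca-1+ luminal libraries 3 rose and 2 fell against Sca-1- luminal ones. Foxa1, a pioneer transcription factor, was at 3.23 and 5.98 FPKM in stromal and between 49.8 and 167 FPKM in all other libraries, and fell by 3.85 ± 0.46 in stromal against Sca-1- luminal libraries (adjusted p = 0.000216).

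Genes that make steroids from cholesterol were mostly near 0. The side-chain cleavage gene Cyp11a1 stayed at or below 0.0773 FPKM and Cyp17a1 at or below 0.0787 FPKM, Hsd3b1, Hsd3b2, Hsd3b3, Cyp11b1 and Cyp11b2 were listed at 0 in all 10 libraries, and the aromatase gene Cyp19a1 did not exceed 0.0673 FPKM. Of 17 listed genes, 6 were tested. In stromal libraries 2 rose and none fell against basal, 1 rose and 1 fell against Sca-1+ luminal, and 2 rose and 1 fell against Sca-1- luminal libraries. In basal libraries none rose and 2 fell against Sca-1+ luminal and 1 rose and 4 fell against Sca-1- luminal libraries, and in Sca-1+ luminal libraries 1 rose and none fell against Sca-1- luminal ones. Across all tested genes, 25.2%, 20.2% and 21.8% were called higher in stromal, basal and Sca-1+ luminal libraries against Sca-1- luminal ones. In that order 27.4%, 26% and 13.3% were called lower. Stromal against basal, stromal against Sca-1+ luminal and basal against Sca-1+ luminal libraries gave 13.5%, 1.8% and 4.39% higher. Their shares called lower were 9.13%, 11.6% and 15.5%. Cyb5a, cytochrome b5, was at 304 and 599 FPKM in stromal, 27.1 and 26.8 FPKM in basal, 200, 229 and 156 FPKM in Sca-1+ luminal and 211, 212 and 279 FPKM in Sca-1- luminal libraries. Its basal libraries were the lowest, and it fell by 3.06 ± 0.33 in basal against Sca-1- luminal libraries (log2, SE; limma adjusted p = 1e-04). Por, the electron donor of microsomal cytochromes P450, was at 209 and 312 FPKM in stromal, 451 and 374 FPKM in basal, 271, 264 and 317 FPKM in Sca-1+ luminal and 87.5, 95.7 and 49.7 FPKM in Sca-1- luminal libraries, and rose by 2.44 ± 0.33 in basal over Sca-1- luminal libraries (adjusted p = 0.000372).

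Because fibroblast markers moved with the gate in which Srd5a2, Hsd11b1 and Sult1e1 were high, each Sca-1+ luminal library was expressed as a percent of the stromal mean. Srd5a2 stood at 50.3%, 29.3% and 5.03% in libraries 1, 2 and 3, and Sult1e1 at 42.0%, 9.06% and 1.81%. Hsd11b1 stood at 133.5%, 93.5% and 6.30%, and H6pd at 74.0%, 46.5% and 20.8%. The 12 fibroblast markers ranged from 12.7% to 114% in library 1 (median 84.1%), 19.8% to 93.4% in library 2 (median 51.3%) and 3.96% to 12.2% in library 3 (median 6.73%). Srd5a2 was thus below the marker median in every library, and Sult1e1 was below the lowest marker in libraries 2 and 3. Hsd11b1 was above the highest of the 12 markers in library 1 and level with it in library 2, and was just below the marker median in library 3. H6pd was above the highest marker in library 3. The part of fibroblast RNA in the Sca-1+ luminal levels of these genes was not tested. A list of 8 smooth muscle markers also moved with these libraries, with sums of 268, 392 and 26.0 FPKM in libraries 1, 2 and 3 of the Sca-1+ luminal gate. Their sums in stromal libraries 1 and 2 were 164 and 316 FPKM, and their part was not tested either. A list of 6 seminal vesicle markers summed to 139 and 119 FPKM in the stromal libraries, 113 and 80.3 FPKM in the basal libraries, 4020 to 7176 FPKM in the Sca-1+ luminal libraries and 1401 to 42650 FPKM in the Sca-1- luminal libraries. Secretory markers (7 genes) summed to 3789 and 7905 FPKM in stromal and 3469 and 5203 FPKM in basal libraries. Their sums were 4019 to 23520 FPKM in Sca-1+ luminal and 176000 to 198100 FPKM in Sca-1- luminal libraries. Luminal markers (10 genes) summed to 189 and 697 FPKM in stromal, 6071 and 8676 FPKM in basal and 3735 to 15020 FPKM in Sca-1- luminal libraries. In Sca-1+ luminal libraries 1, 2 and 3 these markers summed to 3879, 8658 and 14060 FPKM, rising as the fibroblast sums fell. Proximal luminal markers (8 genes) summed to 1165, 3160 and 7135 FPKM in those libraries. Their sums were 38.0 and 104 FPKM in stromal, 670.5 and 926 FPKM in basal and 312 to 357 FPKM in Sca-1- luminal libraries. The part of luminal RNA in the other gates was not tested. Endothelial markers (8 genes) summed to 37.2, 30.0 and 5.99 FPKM in Sca-1+ luminal libraries 1, 2 and 3. Their sums were 15.65 and 12.5 FPKM in stromal, 6.255 and 8.56 FPKM in basal and 16.5, 11.7 and 10.7 FPKM in Sca-1- luminal libraries. The sums were low, but they were highest in Sca-1+ luminal libraries 1 and 2, and their part was not tested. Leukocyte markers (10 genes) summed to at most 24.3 FPKM in any library.

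**Figure D5:**
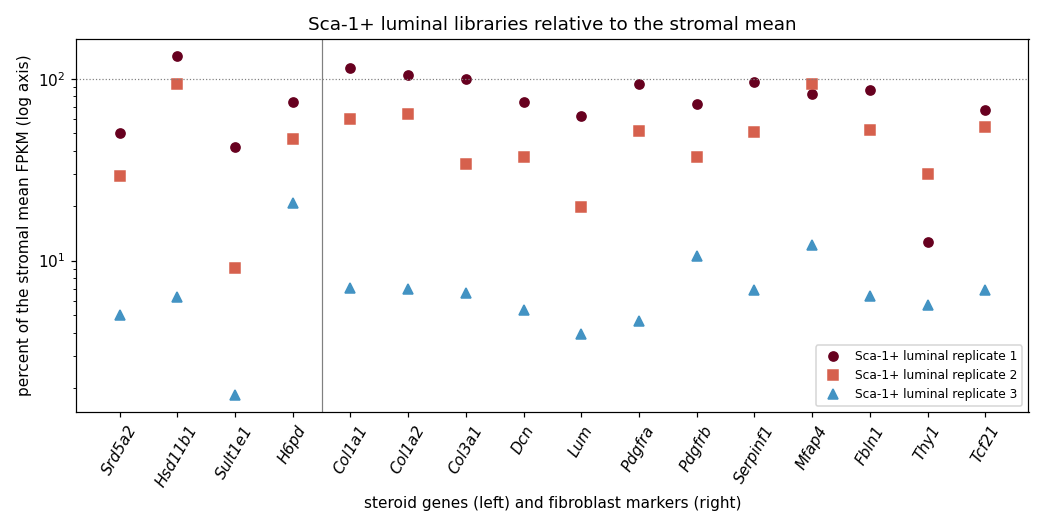
Level of 4 steroid genes (left of the line) and 12 fibroblast markers (right) in each Sca-1+ luminal library, as a percent of the mean of the stromal libraries, on a log axis with a dotted line at 100%. Hsd11b1 stands at 133.5% and 93.5% in libraries 1 and 2, and all genes but H6pd stand at 12.2% or lower in library 3.

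The genes most like each member over the 10 libraries were found by the root-mean-square difference of centred log2(FPKM + 1), as a description with no test. For Srd5a2 they were Rarres2 (0.205), Lamc3 (0.251) and Lgals1 (0.252). For Hsd11b1 they were Rcn3 (0.323), Cpxm2 (0.35) and Pdgfra (0.398), the last of which is one of the 12 fibroblast markers. For Sult1e1 they were C7 (0.484), Mfap5 (0.512) and Ifi205 (0.519). Sult5a1 was nearest to Apoe (0.397), Cdh3 (0.410) and Fhl1 (0.422), Srd5a1 to Phtf2 (0.189), Myh10 (0.221) and Tenm2 (0.222), and Cyp7b1 to Bnip3 (0.361), Prelid2 (0.366) and Fah (0.370). Hsd17b4 was nearest to Suds3 (0.138), Rufy1 (0.148) and Tcn2 (0.148) and Srd5a3 to Primpol (0.164), 1110002L01Rik (0.169) and Pnpla2 (0.174). Esr1 was nearest to C1qtnf12 (0.151), Tspyl2 (0.160) and Agpat3 (0.177) and Nr3c1 to Dip2c (0.157), Nedd4 (0.175) and Shisa2 (0.186). The measure grows with a gene's own spread, so it compares the neighbours of 1 gene and not 1 member with another.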

How the data were processed

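RNA of sorted mouse prostate cells was measured in 10 libraries of 4 gates. Per the labels' protocols, the RNA was primed with both random and oligo(dT) primers (NuGEN Ovation), and TruSeq DNA libraries were read on an Illumina HiSeq. Whether strand is kept is not stated. Per the submitters' processing notes, bcl2fastq 1.8.3 was used, and TopHat and Cufflinks were run on mm10, with TopHat and Cufflinks versions not given in the sources used here. The values are FPKM with 95% confidence bounds, computed by the authors and deposited for 63241 UCSC transcripts per library.

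Transcripts were named by mm10 locus against GENCODE M21 and RefSeq genes of GRCm38.p6 (53721 of 63241, 84.9%). Transcripts under 300 nt were left out and FPKM were summed per gene, which gave 24508 genes. The 10 genes had 29 transcripts. Of 222 listed genes, 219 were in the table. In 7 genes a failed Cufflinks estimate led to removal. Exact zeros may be failed estimates. Depth was read from low values, of which 86.8% to 92.6% lay within 0.1 of a whole fragment. The steps were not whole for all genes, so no count model was used.

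Tests used limma 3.58.1 (R 4.3.3) with log2(FPKM + 1) values. A gene was tested if 2 or more libraries reached 1 FPKM. The model had a mean per gate, empirical Bayes with trend and 6 residual degrees of freedom. Gates of 2 and 3 libraries thus share an estimate of spread. Fold changes on this scale understate those of low genes. The limma code was tested on simulated data. Members and gene lists were chosen with earlier results of these data known, by the named gene rule of all 10 members, list counts, up to 4 called genes per list and comparison by size of change, and Esr2, Pgr, Nr3c2, Hsd11b2, H6pd, Sts, Cyp19a1 and Ch25h. Sts was not in the table. Some genes that the rule names are not reported here. Of the genes so named, those described are mainly ones whose printed call was kept under all alternatives. Alternatives were a pseudocount of 0.1, no filter on low values, median-of-ratios scaling, quantile normalization, a fit of the compared gates only, short transcripts included, library weights, each library left out, and Sca-1+ luminal replicate 3 alone for its gate. Promoter windows are RefSeq sequences. The windows of 7 members outside chromosome 18 were matched. Python 3.11.15, pandas 2.3.3 and matplotlib 3.10.9 made the tables and figures.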

Additional observations from a re-analysis of the deposited data

How the results depend on the processing

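Of 60 tests of the 10 genes, 25 were called, 13 of these under all 18 alternatives, and none changed direction past the threshold. Of 190 calls of 60 named list genes, 98 were kept under all 18 and none reversed. With each library left out in turn, calls over all genes ranged from 1152 to 3584 (stromal over basal), 378 to 3042 (stromal over Sca-1+ luminal), 4341 to 7079 (stromal over Sca-1- luminal), 593 to 3578 (basal over Sca-1+ luminal), 3700 to 6437 (basal over Sca-1- luminal) and 2713 to 5205 (Sca-1+ over Sca-1- luminal). Calls among the 10 genes ranged from 3 to 6, 0 to 2, 4 to 5, 2 to 7, 3 to 5 and 4 to 5 in the same order. The 3 in the first comparison came without stromal 1 or basal 2, the 2 in the second without Sca-1+ luminal 1, and in the fourth 3 came without basal 1 or Sca-1+ luminal 2 and 2 without basal 2. For stromal over Sca-1+ luminal, all genes gave 635 calls with the compared gates only, 3105 with library weights and 3786 with replicate 3 alone, and the 10 genes gave 1 call after quantile normalization, 2 with weights and 4 with replicate 3 alone. For basal over Sca-1+ luminal, all genes gave 1269 with the compared gates only and 5838 with weights, and the 10 genes gave 4 with no filter, 2 with the compared gates only and 4 with replicate 3 alone. For Sca-1+ over Sca-1- luminal, all genes gave 6716 with weights and 2006 with replicate 3 alone, where the 10 genes gave 2. The cause was not tested. No paired analysis was run, because the labels carry no replicate, batch or animal number. A difference shared by libraries of several gates, such as one between preparations, was therefore not modelled. Precision is limited by 2 or 3 libraries per gate, by low FPKM in genes such as Esr2 and Cyp7b1, and by shared transcripts.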
